A study of Danio rerio with 4 samples.

Results

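The comparison covered here is that of the miR-128Δ/Δ library with the WT library, over all genes and cell types. Of the 42951 cell barcodes kept in the 4 libraries of the series, 22230 belonged to it, 12626 from WT and 9604 from miR-128Δ/Δ. A barcode was kept if it held at least 200 detected genes and no more than 35000 UMIs (unique molecular identifiers, each counting 1 captured transcript). The kept barcodes were divided by cdh5, the gene of VE-cadherin, the adhesion molecule of endothelial junctions. The barcodes with at least 1 cdh5 UMI numbered 10808 in WT and 8196 in miR-128Δ/Δ, or 85.6% and 85.3% of each library. Those with cdh5 at 0 numbered 1818 and 1408.

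Both libraries came from Tg(kdrl:GFP) zn1 zebrafish embryos at 26 hpf. In this line the kdrl promoter drives GFP in endothelium, and GFP+ cells of the dissected trunk around the AGM (aorta-gonad-mesonephros region) were sorted before capture with 10x Genomics 3′ chemistry. WT embryos carried the transgene alone, and miR-128Δ/Δ embryos came from a stable line that lacks both copies of the microRNA, miR-128-1 and miR-128-2. The other libraries, csnk1a1 g3UTR and jag1b g3UTR, came from injected embryos of the same transgenic line, in which guide RNA and Cas9 were aimed at the miR-128 sites in the 3′UTR of each gene, so their cells are mosaic. Their file headers name Cell Ranger 6.0.1 and those of WT and miR-128Δ/Δ 5.0.0, so the software version cannot be told apart from other differences between them. Their values are given beside each gene as a description, and no difference from them was tested.

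Every group was 1 library of pooled cells. No p-value can therefore be given, and genotype cannot be told apart from the embryos, the genetic background, the sort or the library. Ratios compare counts-per-million (CPM) of the UMIs summed over a set of barcodes, always miR-128Δ/Δ over WT. Their 95% intervals (exact binomial) cover counting error only. In summed counts, more cells with a transcript and more transcript per cell cannot be told apart, so the number of barcodes with a UMI is given where it matters. Where 4 levels follow each other without names, their order is WT, miR-128Δ/Δ, csnk1a1 g3UTR and jag1b g3UTR.

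miR-128 is a microRNA, a short RNA that pairs through its seed with sites in the 3′UTRs of messenger RNAs and lowers their stability or translation. Its copies lie in introns of r3hdm1 and arpp21, and it is best known from the vertebrate nervous system. At the stage sampled here, haemogenic endothelial cells of the dorsal aorta leave the vessel wall by the endothelial-to-haematopoietic transition (EHT) and become nascent haematopoietic stem and progenitor cells (nHSPCs). Mature miR-128 has no poly(A) tail and is not read by this chemistry. The deletion lies within introns, so neither the microRNA nor its host transcripts check the label of the mutant library.

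Depth differed between the libraries, in opposite directions with and without cdh5. Barcodes with cdh5 had a median of 10461.5 UMIs in WT and 9412 in miR-128Δ/Δ, and those with cdh5 at 0 had 7744.5 and 9738.5. The median share of mitochondrial UMIs lay between 1.43% and 1.56%. The libraries shared 35 barcode sequences, 0.364% of the miR-128Δ/Δ barcodes. Barcodes were placed in 13 cell classes by how many markers of each class they held, a class needing at least 3 markers and more than any other class. Among barcodes with cdh5, venous- or lymphatic-like barcodes made up 69.4% in both libraries and arterial-like barcodes 19.3% and 18.5%. These shares do not check the label of endothelial cells. The division itself used an endothelial gene, and non-endothelial markers common in these barcodes were left out, except in the haemogenic and HSPC class. Those with cdh5 at 0 were a mixture of haematopoietic, mesenchymal, neural, muscle and epidermal classes, and only 16.4% and 14.1% of them were venous- or lymphatic-like.

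A gene was called when it held at least 100 UMIs over both libraries and differed at least 2-fold. In barcodes with cdh5, 333 of 15632 genes (2.13%) were called higher in miR-128Δ/Δ and 348 (2.23%) lower, together 4.36%. In those with cdh5 at 0, 133 of 11938 genes (1.11%) were called higher and 188 (1.57%) lower, together 2.69%. Most genes lay near a ratio of 1. The median log2 ratio was -0.00229 with cdh5 and -0.00334 without, and with cdh5 90% of genes lay between -0.63 and 0.637. Small differences were common at this depth, since the counting interval excluded 1 for 25.7% of genes in the upward and 27.7% in the downward direction with cdh5, against 15.3% and 16.6% with cdh5 at 0. Ratios above and below 1 were held by 49.6% and 50.4% of genes with cdh5 and by 49.3% and 50.7% without. These shares are the background for the gene lists below.

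Calls in barcodes with cdh5 sat mainly among weakly expressed genes. There, 8.33% of genes under 5 CPM were called, and 0.505% of those at 100 CPM or more, where 2 genes were higher and 4 lower. Where cdh5 was at 0 the share varied less, at 2.38% under 5 CPM, 3.32% from 5 to 20 CPM and 1.61% at 100 CPM or more. Not every call was spread over many cells. With cdh5, 223 of the 333 higher genes and 287 of the 348 lower genes also differed at least 2-fold by the number of barcodes with a UMI. Without cdh5 this held for 47 of 133 and 73 of 188. Each such number was scaled to its sum over all genes, not to the count of barcodes. A single barcode held over 20% of the gene's UMIs for 28 and 36 of the calls with cdh5 and for 23 and 35 of those without. Called in the same direction on both sides of the cdh5 division were 58 higher and 66 lower genes, and 8 genes went opposite ways.

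**Figure D1:**
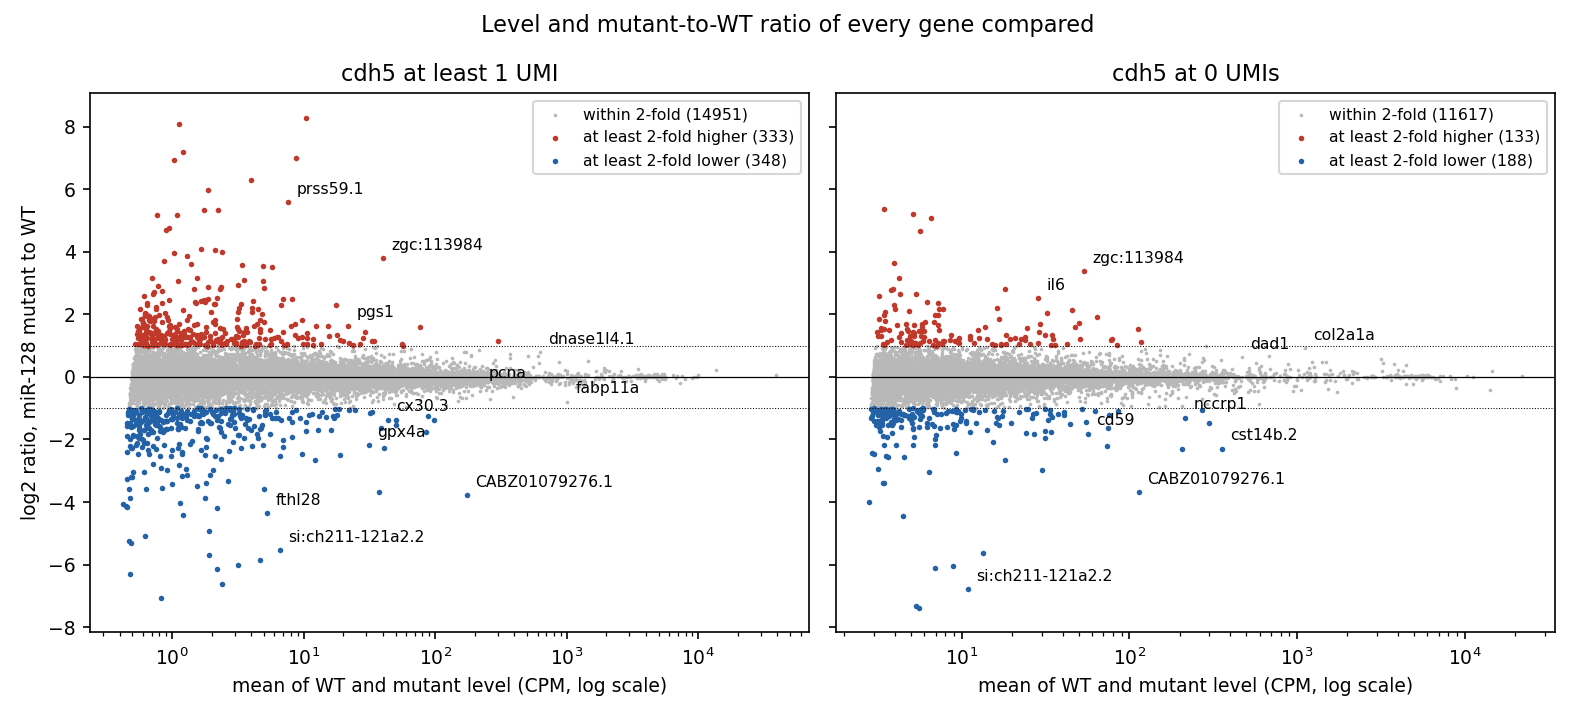
Each point is 1 gene, placed by its mean CPM in the WT and miR-128Δ/Δ libraries (x axis, log scale) and by the log2 of its CPM ratio, miR-128Δ/Δ over WT (y axis), for barcodes with cdh5 (left) and with cdh5 at 0 (right). Most of the 15632 and 11938 genes lie close to 0. On the left, the share of genes called falls as expression increases.

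A few genes differed widely in every class that could be compared. Of 7866 genes that could be compared in at least 6 of 11 classes (20 UMIs or more in a class), 2 were at least 2-fold higher in each class compared and 8 at least 2-fold lower. These 10 were picked out by their values.

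The uncharacterised gene zgc:113984 was higher in 9 classes. Its level in barcodes with cdh5 was 5.40 CPM in WT, 75.1 in miR-128Δ/Δ, 26.0 in the csnk1a1 g3UTR and 56.8 in the jag1b g3UTR library, a ratio of 13.9 (12.8 to 15.11). Here the WT library was the lowest of the 4 and both g3UTR libraries lay between. The ratio ran from 6.01 in neutrophil-like to 21.8 in macrophage-like barcodes over 9 classes. UMIs came from 464 barcodes in WT and 675 in miR-128Δ/Δ. LOC101882062, at 1.55 CPM in WT, 6.52 in miR-128Δ/Δ, 2.75 in the csnk1a1 g3UTR and 1.95 in the jag1b g3UTR library, was 2.14 to 12.1 times higher in 6 classes. The mutant library was the highest of the 4.

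CABZ01079276.1 was the only gene over 200 CPM in WT that was called in barcodes with cdh5. It stood at 327 CPM in WT, 23.8 in miR-128Δ/Δ, 44.0 in the csnk1a1 g3UTR and 208 in the jag1b g3UTR library, a ratio of 0.0728 (0.0696 to 0.0762). A UMI was found in 6215 of the WT barcodes with cdh5 and in 579 of those of miR-128Δ/Δ. Its ratio lay between 0.00555 and 0.162 in all 11 classes, arterial-like, haematopoietic, neural and muscle among them. The csnk1a1 g3UTR library had the second-lowest level. si:ch211-114n24.6 was also lower, with 69.2 CPM in WT, 5.34 in miR-128Δ/Δ, 39.7 in the csnk1a1 g3UTR and 30.29 in the jag1b g3UTR library. Its ratio was 0.0198 to 0.313 over 10 classes.

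BX548028.1 stood at 32.0 CPM in WT, 5.64 in miR-128Δ/Δ, 31.8 in the csnk1a1 g3UTR and 11.5 in the jag1b g3UTR library. The mutant library was the lowest, and jag1b g3UTR lay nearer to it than to WT. si:ch211-121a2.2 was close to absent from the mutant library. It had 12.9 CPM in WT, 0.278 in miR-128Δ/Δ, 43.1 in the csnk1a1 g3UTR and 19.1 in the jag1b g3UTR library with cdh5. Without cdh5 the 404 UMIs in WT stood against 0 in miR-128Δ/Δ, at least 110-fold lower when set against a floor of 3 UMIs. The remaining genes lower in every class were PLBD2, a phospholipase B domain gene, in 7 classes, and BX649485.1, CT868708.1 and si:rp71-1h20.9 in 6 classes each. Between these extremes, 218 genes were above WT in every class compared and 256 were below it, by any margin.

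**Figure D2:**
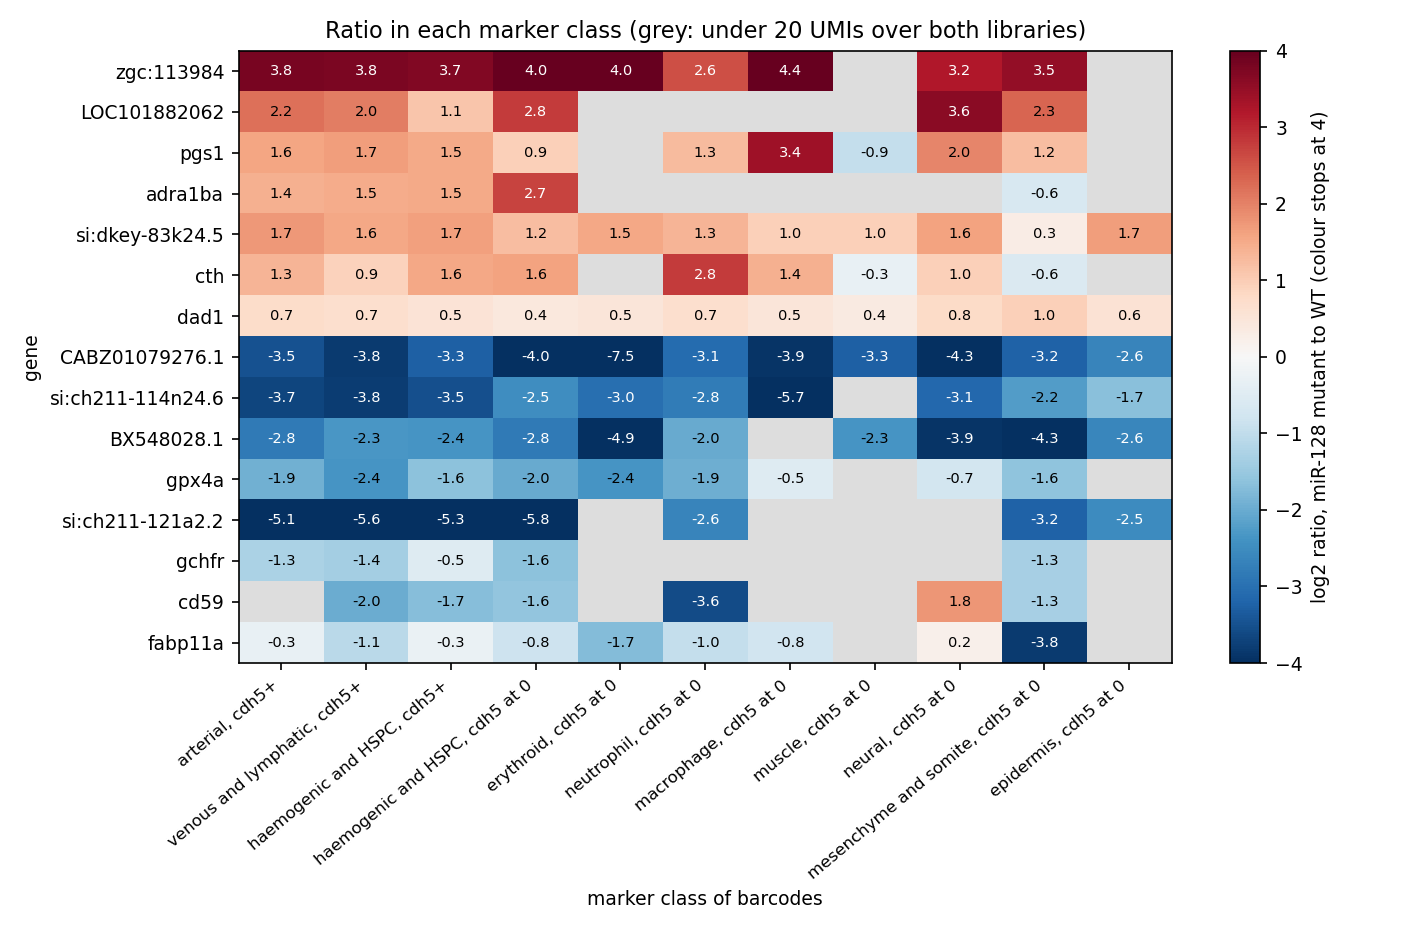
The log2 CPM ratio, miR-128Δ/Δ over WT, of 15 genes (rows) in the 11 classes compared (columns), with classes under 20 UMIs in grey. zgc:113984 is higher and CABZ01079276.1 lower in each class that could be compared.

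Barcodes with cdh5 held further genes whose level was higher in the mutant library than in each of the other 3. prss59.1, a trypsin-like serine protease of the exocrine pancreas, stood at 0.309 CPM in WT, 14.9 in miR-128Δ/Δ, 0.346 in the csnk1a1 g3UTR and 0.0526 in the jag1b g3UTR library. Its ratio was 48.4 (34.9 to 69.1), and a UMI was found in 35 WT and 987 miR-128Δ/Δ barcodes, the top barcode holding 0.404% of the UMIs. The transcript was thus thinly spread over many endothelial barcodes of 1 library. Where cdh5 was at 0 it had 0 UMIs in WT and 62 in miR-128Δ/Δ, at least 25.3-fold higher against a floor of 3 UMIs. doc2d was distributed in the same way, at 0.100 CPM in WT, 7.88 in miR-128Δ/Δ, 0.857 in the csnk1a1 g3UTR and 1.17 in the jag1b g3UTR library, in 12 and 593 barcodes.

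Among genes of higher level, adra1ba encodes an alpha-1B adrenergic receptor. It stood at 15.7 CPM in WT, 42.7 in miR-128Δ/Δ, 21.3 in the csnk1a1 g3UTR and 23.7 in the jag1b g3UTR library (ratio 2.72, 2.57 to 2.88), with 1383 and 2549 barcodes. pgs1, an enzyme of cardiolipin synthesis in mitochondria, stood at 10.6 CPM in WT, 33.0 in miR-128Δ/Δ, 13.0 in the csnk1a1 g3UTR and 13.3 in the jag1b g3UTR library (ratio 3.12, 2.92 to 3.34). In both, the mutant library was the highest of the 4. pgs1 was at least 2-fold higher in arterial-like, venous-like, neutrophil-like, macrophage-like, neural-like and mesenchyme-like barcodes, but had a ratio of 0.52 (0.182 to 1.32) in muscle-like barcodes. adra1ba had its widest ratio, 6.44, in HSPC-like barcodes with cdh5 at 0, and 0.639 (0.241 to 1.62) in mesenchyme-like barcodes.

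si:dkey-83k24.5 stood at 37.95 CPM in WT, 114 in miR-128Δ/Δ, 23.2 in the csnk1a1 g3UTR and 13.97 in the jag1b g3UTR library, with a ratio above 1 in each of the 11 classes. dkk3b, a secreted protein of the Dickkopf family, stood at 10.1 CPM in WT, 25.5 in miR-128Δ/Δ, 15.5 in the csnk1a1 g3UTR and 9.78 in the jag1b g3UTR library. cth, the transsulfuration enzyme that makes cysteine, stood at 6.46 CPM in WT, 13.4 in miR-128Δ/Δ, 6.64 in the csnk1a1 g3UTR and 6.45 in the jag1b g3UTR library. The mutant library was the highest for all of them. Others called higher at lower levels were c7b, a complement component (1.44 against 6.71 CPM), emc4, of the ER membrane complex (1.11 against 5.57 CPM), and arl2bp, a partner of the small GTPase ARL2 (2.396 against 6.98 CPM).

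In other called genes the WT library was the lowest or the highest of the 4. eef1a1l2, an elongation factor 1-alpha gene, stood at 0.735 CPM in WT, 6.33 in miR-128Δ/Δ, 5.93 in the csnk1a1 g3UTR and 7.52 in the jag1b g3UTR library. gpx4a, a glutathione peroxidase that reduces lipid peroxides, stood at 51.4 CPM in WT, 11.3 in miR-128Δ/Δ, 11.03 in the csnk1a1 g3UTR and 13.6 in the jag1b g3UTR library (ratio 0.22, 0.206 to 0.236). WT was the lowest for eef1a1l2 and the highest for gpx4a. With cdh5 at 0 gpx4a was again highest in WT, at 52.8 CPM in WT, 15.7 in miR-128Δ/Δ, 14.1 in the csnk1a1 g3UTR and 18.7 in the jag1b g3UTR library. gchfr, a regulator of tetrahydrobiopterin synthesis, was likewise highest in WT, at 72.7 CPM, against 28.2 in miR-128Δ/Δ, 18.4 in the csnk1a1 g3UTR and 9.29 in the jag1b g3UTR library.

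Genes lowest in the mutant library included a run of ferritin heavy chain-like genes, which store iron and are neighbours in the genome annotation used here for gene order. fthl28 stood at 10.1 CPM in WT, 0.495 in miR-128Δ/Δ, 12.4 in the csnk1a1 g3UTR and 16.6 in the jag1b g3UTR library. fthl30 stood at 11.2, 2.80, 20.2 and 24.65 CPM in the same order. fthl29 stood at 2.19, 0.133, 3.03 and 3.73 CPM. These copies are alike in sequence, and reads could be split among them in counting. cx30.3, a connexin, stood at 63.1 CPM in WT, 24.54 in miR-128Δ/Δ, 41.0 in the csnk1a1 g3UTR and 49.9 in the jag1b g3UTR library.

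nccrp1 stood at 123 CPM in WT, 51.8 in miR-128Δ/Δ, 75.2 in the csnk1a1 g3UTR and 94.8 in the jag1b g3UTR library, in 6537 WT and 2703 miR-128Δ/Δ barcodes. phb2a, a prohibitin of the inner mitochondrial membrane, stood at 24.9 CPM in WT, 10.7 in miR-128Δ/Δ, 15.3 in the csnk1a1 g3UTR and 15.7 in the jag1b g3UTR library. Several weakly expressed genes were almost without UMIs in the mutant library. capn8, a calpain protease, stood at 6.30 CPM in WT and 0.0967 in miR-128Δ/Δ, with 255 barcodes in WT and 5 in miR-128Δ/Δ. In venous-like barcodes capn8 stood at 7.64, 0.0353, 2.36 and 2.61 CPM, so WT was also above both g3UTR libraries there. cyp4v7, a cytochrome P450, had 457 barcodes in WT and 5 in miR-128Δ/Δ, at 4.30 and 0.0604 CPM, but it was also low in csnk1a1 g3UTR (1.47 CPM) and jag1b g3UTR (1.16 CPM). b3gnt3.3, a glycosyltransferase, had 411 and 6 barcodes, at 3.74 and 0.0725 CPM, and was high in both g3UTR libraries (8.95 and 6.68 CPM).

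**Figure D3:**
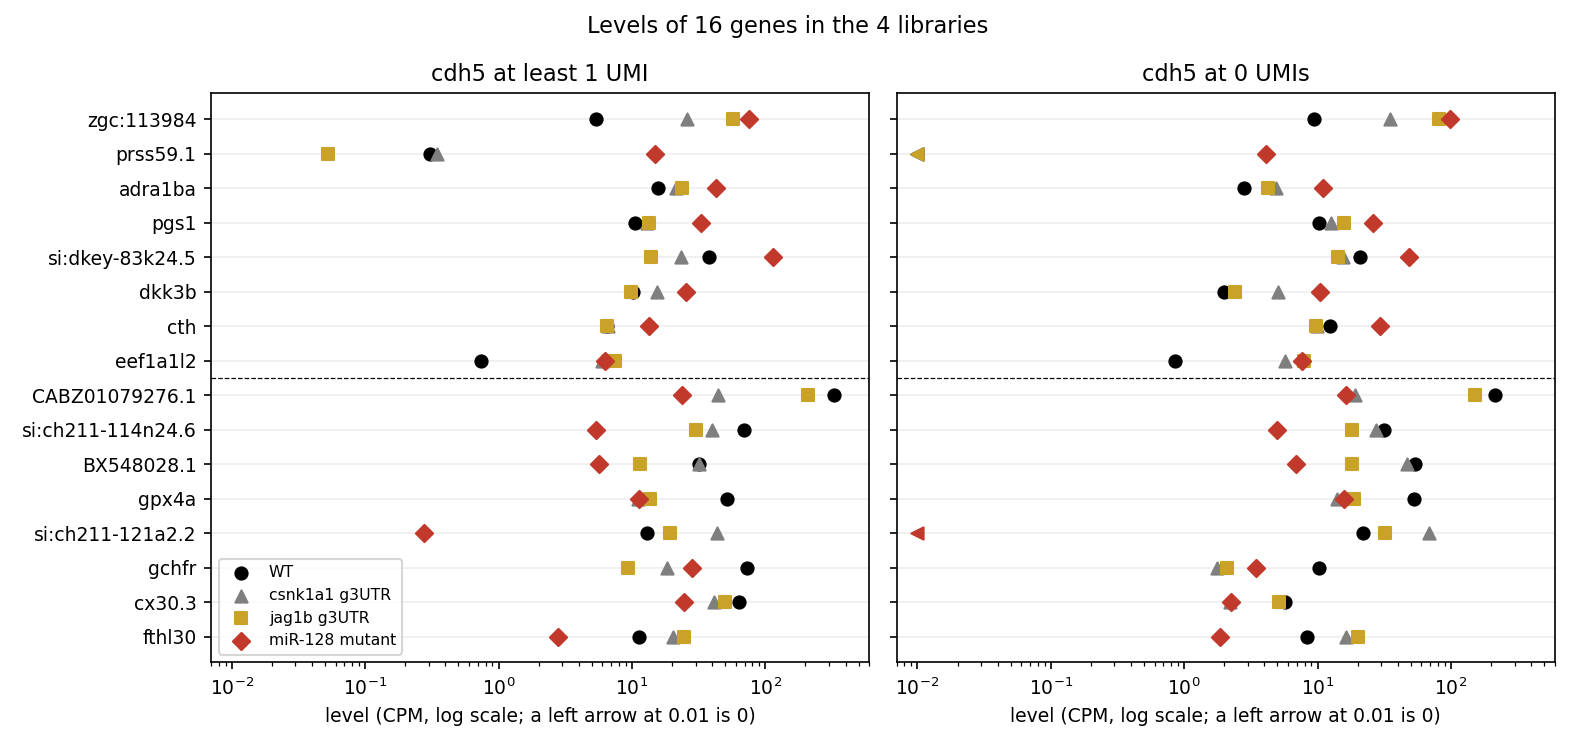
CPM (log scale) of 16 genes in barcodes with cdh5, with 1 point for each of the 4 libraries, 8 genes higher in miR-128Δ/Δ above the dashed line and 8 lower below it. The mutant library is the highest of the 4 for adra1ba and pgs1, and WT is the lowest for eef1a1l2 and the highest for gpx4a.

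Among the 576 genes over 200 CPM in WT in barcodes with cdh5, those furthest from 1 after CABZ01079276.1 differed by less than 2-fold. dnase1l4.1 stood at 457 CPM in WT, 792 in miR-128Δ/Δ, 454 in the csnk1a1 g3UTR and 403 in the jag1b g3UTR library (ratio 1.74, 1.72 to 1.75). Its ratio was 1.86 in venous-like, 1.32 in arterial-like and 0.823 in HSPC-like barcodes with cdh5. dad1, a subunit of the oligosaccharyltransferase that glycosylates new proteins, stood at 466 CPM in WT, 740 in miR-128Δ/Δ, 484 in the csnk1a1 g3UTR and 362 in the jag1b g3UTR library. It was higher in each of 11 classes, by 1.28 to 1.94.

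dap1b stood at 393 CPM in WT and 620 in miR-128Δ/Δ, with 360 and 274 in the g3UTR libraries. sele, the E-selectin by which endothelium binds leukocytes, stood at 293 and 448 CPM, with 321 and 523 in the g3UTR libraries, so its mutant level lay within the range of the other libraries. fabp11a, a fatty acid-binding protein, was the abundant gene furthest below WT after CABZ01079276.1, at 1269 CPM in WT, 735 in miR-128Δ/Δ, 895 in the csnk1a1 g3UTR and 575 in the jag1b g3UTR library. csrp1a, a LIM-domain protein of the actin cytoskeleton, stood at 327, 198, 225 and 229 CPM. Both were again highest in WT. lyz, the lysozyme of neutrophils, stood at 277 CPM in WT and 461 in miR-128Δ/Δ with cdh5, with 942 and 910 in the g3UTR libraries. Fewer barcodes held it in the mutant library, 1036 against 1697 in WT.

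The transcripts in which miR-128 lies and its studied targets differed by less than 2-fold. With cdh5, arpp21 and jag1b lay further from WT than r3hdm1 and csnk1a1. arpp21, a host gene, stood at 9.97 CPM in WT, 6.51 in miR-128Δ/Δ, 8.85 in the csnk1a1 g3UTR and 14.7 in the jag1b g3UTR library (ratio 0.653, 0.589 to 0.724). r3hdm1, the other host, had a ratio of 1.08 (0.993 to 1.17). csnk1a1, the casein kinase that marks beta-catenin for destruction in the Wnt pathway, had 1.05 (1.03 to 1.06). jag1b, a Notch ligand, stood at 6.82 CPM in WT, 9.05 in miR-128Δ/Δ, 5.98 in the csnk1a1 g3UTR and 6.50 in the jag1b g3UTR library (ratio 1.33, 1.2002 to 1.47). In barcodes with cdh5 at 0 the ratio of jag1b was 0.893. None of these was called, and a microRNA can also act on translation, which RNA counts do not read.

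Genes near the hosts of miR-128 on the chromosome were counted as well. Gene order came from the zebrafish GRCz12tu annotation, which held 13378 of the 15632 genes compared (85.6%), and 3.13% of these were called. r3hdm1 lies on chromosome 22, where 5.39% of genes were called, the largest share of any chromosome. arpp21 lies on chromosome 19, where 3.96% were called. Of the 50 nearest genes on each side of r3hdm1, 5 of 100 were called, against 5.51% on the rest of its chromosome. All 5 were lower, as were 14 of the 20 called on the rest of the chromosome. Among the 5 was si:ch211-246m6.4, at 44.5 CPM in WT and 19.99 in miR-128Δ/Δ, with 122 and 54.0 in the g3UTR libraries. Of those around arpp21, 6 of 100 were called, 4 higher and 2 lower, against 3.52% of the rest of the chromosome. The higher ones included susd5 (ratio 2.88), ppp1r9a (2.14) and eef1a1l2, for which WT stood low. The lower ones were si:ch211-250g4.3 (0.404) and eif3hb (0.49996). On the rest of the arpp21 chromosome 13 of the 16 called genes were higher.

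Cell cycle genes were lower in the mutant endothelium, a difference spread over many genes and small for each. The list of 23 DNA replication genes, among them the MCM helicase subunits, the clamp pcna and the nucleotide enzymes rrm1 and rrm2, was below WT in 23 of 23 members with cdh5. The interval lay below 1 for 21 of them, where 27.7% of all genes did so. The median log2 ratio was -0.285, with members from -0.363 to -0.0538, beside -0.00229 for all genes. Of the 24 mitosis genes all 24 were below WT, 23 by their interval, with a median of -0.267.

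The summed level of the replication list was 1192 CPM in WT, 993.5 in miR-128Δ/Δ, 1165 in the csnk1a1 g3UTR and 1107 in the jag1b g3UTR library. That of the mitosis list was 749.8, 605.2, 906 and 1061 CPM in the same order. The mutant library had the lowest sum for both lists. pcna stood at 246 CPM in WT and 197 in miR-128Δ/Δ (ratio 0.803, 0.788 to 0.819), and ube2c, the ubiquitin-conjugating enzyme of the anaphase-promoting complex, at 83.6 and 58.4 CPM (0.699, 0.675 to 0.723). No member was called at 2-fold.

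The difference was not equal among cell classes. In venous- or lymphatic-like barcodes the summed replication level was 0.779 of WT (0.77 to 0.788) with 23 of 23 members below (52.3% of all genes in the class), and the mitosis level 0.775 (0.763 to 0.787) with 24 of 24 below. In arterial-like barcodes, the class to which endothelium of the dorsal aorta belongs, the sums were 0.929 (0.913 to 0.945) and 0.85 (0.834 to 0.866). The replication ratio of arterial-like barcodes was thus nearer to 1, with 8 of 23 members below 1 by their interval (12.7% of all genes) against 21 of 23 in venous-like barcodes (23.6% of all genes).

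HSPC-like barcodes with cdh5 showed the widest gap in mitosis genes of any vascular or blood class. Their mitosis sum was 817.4 CPM in WT and 501.1 in miR-128Δ/Δ (0.613, 0.575 to 0.653), with 23 of 24 members below WT (53.7% of all genes in the class) and a median of -0.73. ube2c stood at 69.5 and 24.1 CPM there, in 48 and 34 barcodes. Once cdh5 was at 0, the HSPC-like barcodes went the other way for replication, with a sum of 1.09 (1.07 to 1.12) and 20 of 23 members above WT (47.8% of all genes in the class), while the mitosis sum was 0.894. The summed replication ratio thus lay on opposite sides of 1 in HSPC-like barcodes with the endothelial cadherin transcript and those without it. Where cdh5 was at 0, the thinned shares given below went the other way, so no order is read there.

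Outside endothelium there was no common direction. In neutrophil-like barcodes the replication sum was 0.755 (0.707 to 0.806) and the mitosis sum 1.19 (1.09 to 1.29). In the small macrophage-like class both were above WT, at 1.44 and 1.34. Mesenchyme-like barcodes were below WT in mitosis (0.753, with 20 of 24 members below against 53.3% of all genes), and epidermis-like barcodes were below in replication (0.644) and above in mitosis (1.7). Over all barcodes with cdh5 at 0 the replication median was 0.0999 and the mitosis median -0.059.

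To lessen the part of depth, each barcode was thinned to 3000 UMIs and those with at least 3 UMIs of a list were counted. Barcodes under 3000 UMIs were left out. The cdh5 division and the classes came from unthinned counts here, so depth still bears on them. Among barcodes with cdh5, 32.7% in WT, 26.1% in miR-128Δ/Δ, 34.3% in csnk1a1 g3UTR and 34.6% in jag1b g3UTR held at least 3 replication UMIs. For mitosis the shares were 14.3%, 11%, 16.9% and 18.6%. The mutant share was the lowest in both. Among venous-like barcodes, 26.7% of WT and 19.8% of miR-128Δ/Δ barcodes held at least 3 replication UMIs, with intervals that do not overlap. Among arterial-like barcodes the replication shares were 42.7% (40.6 to 44.9) and 38.1% (35.6 to 40.7), and the mitosis shares 22.2% (20.4 to 24) and 20% (18 to 22.1), and both pairs of intervals overlap. In HSPC-like barcodes with cdh5, 18.2% (13.3 to 23.9) of WT and 11.1% (7.48 to 15.6) of mutant barcodes held at least 3 mitosis UMIs, intervals that overlap, beside 27.3% and 26.6% in the g3UTR libraries. In HSPC-like barcodes with cdh5 at 0 the replication shares were 65.9% and 62.5%, against the order of the CPM, so no order is read from either.

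**Figure D4:**
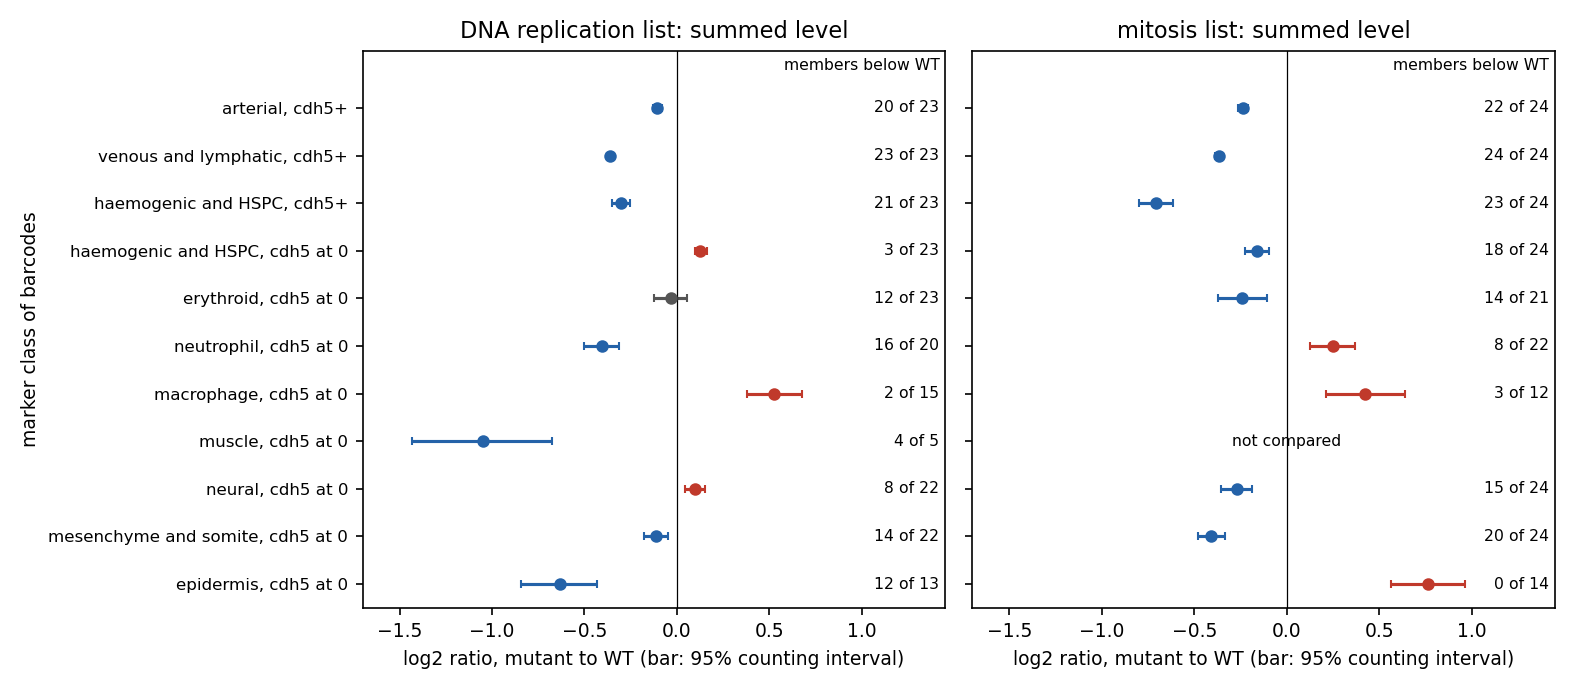
The log2 ratio of the summed CPM, miR-128Δ/Δ over WT, of the DNA replication list (left) and the mitosis list (right) in each class, with 95% counting intervals and the number of members below WT. Both sums lie below 0 in arterial-like, venous-like and HSPC-like barcodes with cdh5, and the replication sum lies above 0 in HSPC-like barcodes with cdh5 at 0.

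Taken over all barcodes with cdh5, most regulators of the EHT lay above WT. Of 18 compared, 13 were above WT, 10 by their interval (25.7% of all genes), with a median log2 ratio of 0.113. Within arterial-like barcodes 10 of 17 were above WT, where 7757 of 15129 genes were, with a median of 0.0291. Within venous-like barcodes 9 of 18 were (47.7% of all genes in the class), with a median of 0.0172. The levels given next are those over all barcodes with cdh5. gata2b, which initiates the haemogenic programme upstream of runx1, stood at 4.86 CPM in WT, 6.84 in miR-128Δ/Δ, 5.32 in the csnk1a1 g3UTR and 3.02 in the jag1b g3UTR library (ratio 1.41, 1.25 to 1.58). gfi1aa, a repressor of the endothelial programme during EHT, stood at 5.40 and 8.24 CPM (1.53, 1.37 to 1.70), with 8.36 and 4.86 in the g3UTR libraries. For gata2b the mutant library was the highest, and for gfi1aa it was level with csnk1a1 g3UTR.

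runx1, the transcription factor required for EHT, was not distinguishable at this depth, at 3.64 CPM in WT and 3.93 in miR-128Δ/Δ (1.08, 0.932 to 1.25), with 7.78 and 7.75 in the g3UTR libraries. myb, the gene that marks nHSPCs, stood at 16.9 CPM in WT, 20.3 in miR-128Δ/Δ, 24.52 in the csnk1a1 g3UTR and 18.1 in the jag1b g3UTR library. spi2, an ETS factor of the Spi family, stood at 32.8 and 45.2 CPM (1.38), ikzf1, a lymphoid zinc-finger factor, at 6.72 and 9.42 CPM (1.40), and ptprc, the pan-leukocyte antigen CD45, at 1.65 and 3.03 CPM (1.84). tal1 (0.927) and cbfb, the partner of runx1 (0.882), lay below WT. A gata2b UMI was found in 360 of 10808 barcodes in WT and in 345 of 8196 in miR-128Δ/Δ.

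In barcodes with cdh5 at 0, gata2b stood at 6.78 CPM in WT, 12.3 in miR-128Δ/Δ, 8.35 in the csnk1a1 g3UTR and 3.04 in the jag1b g3UTR library (1.81, 1.44 to 2.29), in 72 and 92 barcodes. spi2 had a ratio of 1.505 and gfi1aa of 1.419, while etv2, the ETS factor that specifies endothelium, had 0.683 and the myeloid factor spi1b 0.756. Within the HSPC-like class 9 of 18 members lay above WT with cdh5 (46.3% of all genes in the class) and 12 of 18 without. All 10 markers that define the class are on this list, so the list is not independent of the class.

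The share of barcodes placed in the HSPC-like class was higher in the mutant library. Among barcodes with cdh5 they were 2.07% (1.81 to 2.36) in WT and 3.11% (2.75 to 3.51) in miR-128Δ/Δ, and 1.67% and 2.48% after thinning to 3000 UMIs. With cdh5 at 0 they were 16.9% (15.2 to 18.7) and 22.4% (20.3 to 24.7), and after thinning 12.9% (11 to 14.9) and 15.6% (13.5 to 17.9), where the intervals overlap. The same markers set the class and their own level, so more HSPC-like cells and more marker transcript per cell cannot be told apart. The classes hold only cells that passed the GFP sort.

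Other classes with cdh5 at 0 differed in share too. Neutrophil-like barcodes were 8.36% (7.13 to 9.73) in WT and 5.82% (4.66 to 7.18) in miR-128Δ/Δ, at medians of 24913 and 22567.5 UMIs. Macrophage-like barcodes were 1.32% (0.848 to 1.96) and 2.77% (1.98 to 3.77), or 24 and 39 barcodes. Mesenchyme-like barcodes were 7.98% (6.77 to 9.32) and 11.9% (10.3 to 13.7). Of these 3, the mesenchyme-like and macrophage-like intervals did not meet, but after thinning the intervals of all 3 overlapped. Without any class were 21.9% and 16.8%, and 31.8% in both libraries after thinning.

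**Figure D5:**
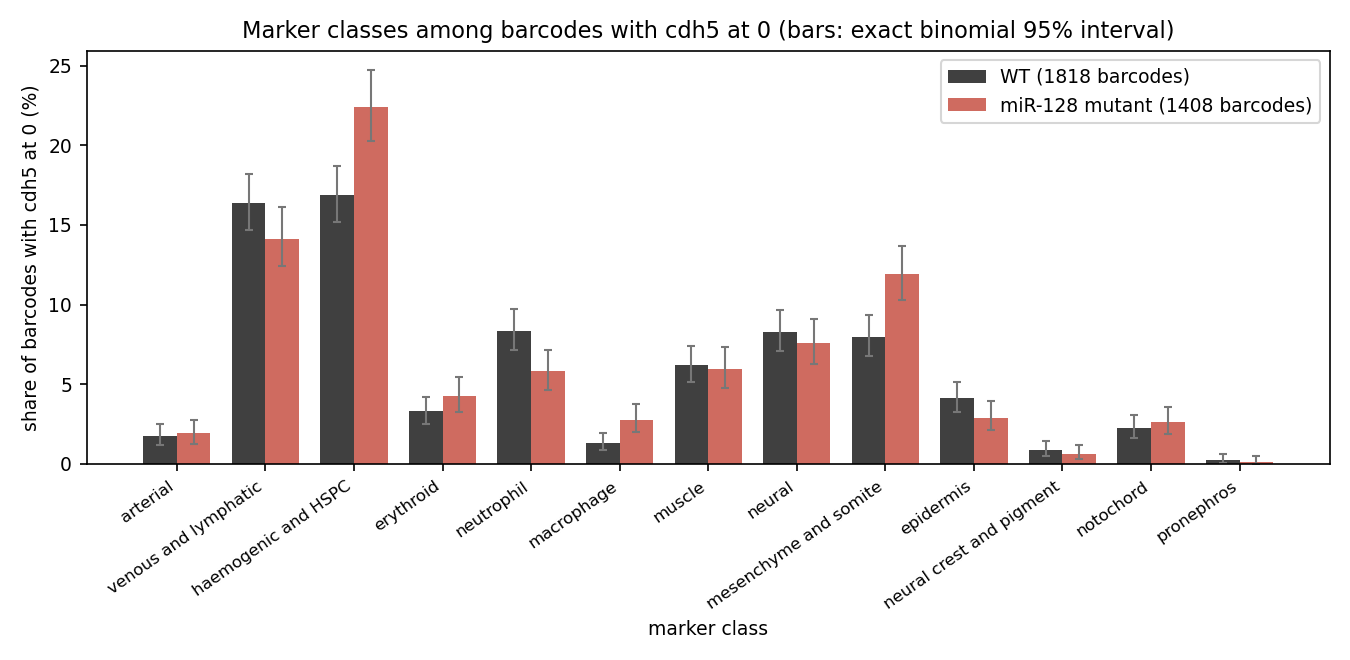
Share of barcodes with cdh5 at 0 in each class, in percent, in the WT and miR-128Δ/Δ libraries, with exact 95% binomial intervals that cover counting error only. The HSPC-like share is 16.9% in WT and 22.4% in miR-128Δ/Δ, and the neutrophil-like share is 8.36% and 5.82%.

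In HSPC-like barcodes with cdh5, 25 of 5053 genes were called higher (0.495%) and 57 lower (1.13%). The genes given next were chosen by their size and their spread over barcodes. tnni4b.2, a troponin I, stood at 97.4 CPM in WT, 252 in miR-128Δ/Δ, 110 in the csnk1a1 g3UTR and 85.8 in the jag1b g3UTR library, in 108 of 224 and 174 of 255 barcodes. alpl, an alkaline phosphatase, stood at 48.1, 135, 57.1 and 50.7 CPM in the same order (2.81, 2.33 to 3.40). myl9a, a regulatory myosin light chain, stood at 98.3, 215, 82.7 and 51.7 CPM. In each the mutant library was the highest and no barcode held over 2.41% of the mutant UMIs.

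kdrl, the VEGF receptor whose promoter drives the sorted GFP, stood at 1053 CPM in WT, 1820 in miR-128Δ/Δ, 3038 in the csnk1a1 g3UTR and 2797 in the jag1b g3UTR library in the same HSPC-like barcodes (1.73, 1.66 to 1.80), against 1.16 in arterial-like and 1.15 in venous-like barcodes. The embryonic globins were lower there, with a sum of 545.2 CPM in WT and 230.3 in miR-128Δ/Δ (0.423) and 7 of 9 members below 1 by their interval. The haem synthesis list was below WT in 8 of 9 members, with a sum ratio of 0.629. The immediate-early genes, such as the fos and jun family members, which respond within minutes to stimuli, were below WT in 18 of 21 members, 15 by their interval (11.2% of all genes). The HSPC-like barcodes of the mutant library thus held more kdrl and less globin than those of WT, whose kdrl level was the lowest of 4. Other endothelial genes were mixed there. Above WT were 4 of 8 VEGF receptors and ligands and 12 of 20 junction and membrane genes (46.3% of all genes in the class). The globin sum was also 0.651 of WT in arterial-like and 0.963 in venous-like barcodes. cst14b.2, afp4 and bhmt, among the lowest in them, came from 3 or fewer WT barcodes and are not described further.

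In HSPC-like barcodes with cdh5 at 0 the genes given were again chosen by size. adra1ba stood at 3.11 CPM in WT, 20.02 in miR-128Δ/Δ, 11.2 in the csnk1a1 g3UTR and 9.59 in the jag1b g3UTR library, in 13 and 80 barcodes. myct1b, a target of MYC in mammals, stood at 3.88, 19.0, 7.48 and 11.7 CPM. tnnt2d, a troponin T, stood at 16.5, 45.3, 24.4 and 18.8 CPM. WT was the lowest library in all of these. igfbp1a, an insulin-like growth factor-binding protein induced by hypoxia, stood at 254, 85.6, 166 and 196 CPM, and cd59, an inhibitor of complement lysis, at 167, 56.1, 119 and 78.4 CPM.

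The lower igfbp1a level was shared by the endothelial barcodes. With cdh5 it stood at 158 CPM in WT, 84.7 in miR-128Δ/Δ, 86.5 in the csnk1a1 g3UTR and 123 in the jag1b g3UTR library, and with cdh5 at 0 its ratio was 0.53. The hypoxia list as a sum was 851.5 CPM in WT and 673.7 in miR-128Δ/Δ (0.791), with 689.3 and 720.8 in the g3UTR libraries. pfkfb4b, a glycolytic regulator (87.4 and 59.9 CPM), and aldoaa, an aldolase (467 and 380 CPM), were among the lower members. pgk1 (1.15) and vegfaa (1.28) lay above WT, and by count the list split, with 9 of 15 members below. WT held the highest sum and the mutant library the lowest.

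Genes of the endothelial surface differed by small and mixed amounts. Of 20 junction and membrane genes compared in barcodes with cdh5, 12 lay below 1 by their interval (27.7% of all genes) and 6 above (25.7%). esama, an adhesion molecule of endothelial tight junctions, was the lowest, at 187 CPM in WT, 120 in miR-128Δ/Δ, 170 in the csnk1a1 g3UTR and 182 in the jag1b g3UTR library (0.642, 0.627 to 0.657). aqp1a.1, a water channel, stood at 1896, 1502, 2025 and 1788 CPM. In both, the mutant library was the lowest of 4.

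ramp2, the receptor partner for adrenomedullin, stood at 489 CPM in WT, 614 in miR-128Δ/Δ, 443 in the csnk1a1 g3UTR and 455 in the jag1b g3UTR library (1.26), and pecam1 at 215, 247, 173 and 174 CPM (1.15). vwf, the platelet adhesion factor, had a ratio of 1.82 at a level of 2.47 and 4.51 CPM. cdh5 itself, which set the division, stood at 896 and 908 CPM. Of the VEGF receptors, kdr (0.842), flt1 (0.832) and nrp2a (0.725) were below WT and kdrl above (1818 and 2132 CPM), with g3UTR levels of kdrl of 4682 and 5595 CPM.

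Targets of Notch and Wnt, the pathways in which jag1b and csnk1a1 act, differed by small amounts. Of 9 Notch targets compared with cdh5, 8 were below WT (50.4% of all genes) and 4 by their interval (27.7%), with a median of -0.0685. hey1 had a ratio of 0.829, and heyl, the one above, stood at 0.776 and 1.34 CPM. In barcodes with cdh5 at 0 the median was -0.309. Class sums there ran from 0.705 of WT in mesenchyme-like to 1.26 (1.03 to 1.55) in epidermis-like barcodes, where 3 members were compared. Of 8 Wnt targets, 5 were above WT (49.6% of all genes) and 3 by their interval (25.7%). The Wnt targets tcf7 (0.778, 0.665 to 0.91) and the cyclin ccnd1 (0.888, 0.848 to 0.929) lay below WT by theirs. cdx4, a caudal-type homeobox gene, stood at 4.22 CPM in WT, 7.12 in miR-128Δ/Δ, 11.9 in the csnk1a1 g3UTR and 6.70 in the jag1b g3UTR library (1.69, 1.497 to 1.91). No Wnt or Notch target was called.

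Hox genes, which set position along the body axis, were above WT in 36 of 47 members with cdh5, 26 by their interval (25.7% of all genes), with a median of 0.156. Among venous-like barcodes 41 of 49 were above WT (47.7% of all genes in the class), with a median of 0.194. Arterial-like barcodes had 27 of 46 above WT, where 7757 of 15129 genes were, with a median of 0.0441. Posterior members were among the higher, hoxd13a at 10.1 CPM in WT, 15.3 in miR-128Δ/Δ, 8.998 in the csnk1a1 g3UTR and 7.19 in the jag1b g3UTR library (1.52), and hoxc12b at 27.2, 39.8, 32.0 and 25.3 CPM (1.46). Without cdh5, 23 of 38 members were below WT.

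Heat shock genes were lower in endothelium while the main constitutive chaperone was higher. With cdh5, 13 of 17 were below WT, 12 by their interval (27.7% of all genes), and the median was -0.242. The stress-inducible hsp70.1 stood at 3.96 CPM in WT and 2.02 in miR-128Δ/Δ (0.509), with 1.61 and 3.09 in the g3UTR libraries. hsp90aa1.2 stood at 96.6, 63.4, 184 and 69.9 CPM. hspa8, the constitutive member, stood at 3174, 3787, 2177 and 1967 CPM (1.19), so the sum of the list was 1.07 times WT while its median was negative. hspb9, a small heat shock protein, was the only member called, at 4.95, 12.4, 4.17 and 6.42 CPM (2.51, 2.26 to 2.78).

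Genes of antigen presentation, fixed as part of an interferon list, lay on both sides of WT. psmb10, a catalytic subunit of the immunoproteasome, stood at 5.33 CPM in WT, 12.7 in miR-128Δ/Δ, 15.5 in the csnk1a1 g3UTR and 8.19 in the jag1b g3UTR library (2.39, 2.16 to 2.64). tap1, the peptide transporter, had a ratio of 1.71, and mhc1uba, a class I molecule, of 7.57 at 0.184 and 1.39 CPM. b2m, the light chain of class I, had 1.41 with cdh5 and 2.37 with cdh5 at 0, where it stood at 7.48, 17.7, 9.95 and 5.13 CPM. tapbp.1, a tapasin gene, was below WT at 3.66 and 2.11 CPM (0.578, 0.483 to 0.691). isg15, an interferon-induced ubiquitin-like protein, was below WT, with a ratio of 0.853 with cdh5 and 0.386 with cdh5 at 0. Of the interferon list 8 of 14 members were above WT, with a median of 0.0401.

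Markers of other cell types also differed among barcodes with cdh5, and their part in the results above was not tested. All 6 neutrophil markers used were above WT. They summed to 50.2 CPM in WT, 98.2 in miR-128Δ/Δ, 163 in the csnk1a1 g3UTR and 210 in the jag1b g3UTR library. The neutrophil list held 10 markers, and those common in barcodes with cdh5 were left out. Of the ones left out, nccrp1 was below WT and lyz above it but in fewer barcodes, as given above. The 9 macrophage markers used summed to 22.4 and 55.0 CPM, with 50.3 and 48.7 in the g3UTR libraries, and 5 of them could be compared. The defining marker mpeg1.1, in 0.0842% of barcodes with cdh5, had too few UMIs to compare. The 10 neural markers compared were all below WT, and the 12 used summed to 31.7 and 17.1 CPM. The pigment markers summed to 3.75 and 31.6 CPM, through gch2 among others, of which 1 barcode held 82.6% of the mutant UMIs. Embryonic globins were below WT in 8 of 9 members with cdh5 (sum 1118 and 774.8 CPM, with 3331 and 4566 in the g3UTR libraries) and above it in 8 of 9 with cdh5 at 0 (15850 and 21210 CPM). Erythroid-like barcodes with cdh5 numbered 26 of 10808 in WT and 8 of 8196 in miR-128Δ/Δ. Their part in the globin sums was not tested. The WT and mutant libraries were nearer to each other in globin than to either g3UTR library.

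The classes show how few barcodes can carry such a difference. In arterial-like barcodes lyz stood at 20.3 CPM in WT and 461 in miR-128Δ/Δ, but in 318 and 178 barcodes, and the 3 barcodes with the most held 84.1% of the mutant UMIs. In venous-like barcodes lyz was lower, at 134 and 24.1 CPM. mpx, the neutrophil peroxidase, was found in 22 and 21 arterial-like barcodes, at 0.956 and 22.3 CPM, with 87.8% in the top 3. The cartilage collagens col9a1b and col9a2 were set by 1 barcode each (96.9% and 96.0%). By contrast rims2a, at 0.261 and 8.78 CPM, came from 6 and 111 arterial-like barcodes, with 2.22% in the top one.

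Macrophage-like barcodes with cdh5 at 0, 24 in WT and 39 in miR-128Δ/Δ, held the largest share of called genes, 44 of 1343 higher (3.28%) and 20 lower (1.49%). The genes given from this class were chosen by their values. il6, the cytokine interleukin 6, stood at 255 CPM in WT, 944 in miR-128Δ/Δ, 407 in the csnk1a1 g3UTR and 319 in the jag1b g3UTR library, in 15 of 24 and 33 of 39 barcodes (3.71, 3.08 to 4.49). csf3b, a granulocyte colony-stimulating factor, stood at 696, 1812, 998 and 517 CPM. lacc1, an immunometabolic enzyme of macrophages, stood at 153, 501, 613 and 376 CPM, so that WT was the low library for it.

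pglyrp5, a peptidoglycan recognition protein, stood at 430 CPM in WT, 1426 in miR-128Δ/Δ, 1128 in the csnk1a1 g3UTR and 760 in the jag1b g3UTR library. ctsd, the protease cathepsin D, was lower, at 524, 242, 449 and 499 CPM. ctsla, a cathepsin L gene, stood at 771, 365, 402 and 567 CPM, but 1 barcode held 41.0% of its WT UMIs. The mutant library was the highest of 4 for il6, csf3b and pglyrp5. The neutrophil granule gene npsn was found in 2 and 9 of these barcodes, with 92.7% of its mutant UMIs in 3, and its part in the values of this class was not tested.

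In neutrophil-like barcodes, 152 and 82, cth was called as it was in endothelium, with a wider ratio of 7.01 (5.05 to 9.91), at 14.6 CPM in WT, 102 in miR-128Δ/Δ, 10.99 in the csnk1a1 g3UTR and 8.24 in the jag1b g3UTR library. A cth UMI was found in 31 of 152 and 62 of 82 barcodes. mgst1.2, a microsomal glutathione transferase, stood at 269, 832, 539 and 355 CPM. cd59 was lower, at 186, 15.6, 52.7 and 91.0 CPM, in 49 and 6 barcodes. cst14b.2, a cystatin protease inhibitor, stood at 3161, 928, 4902 and 3495 CPM. Over the class 31 genes of 3308 were called higher (0.937%) and 28 lower (0.846%).

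Mesenchyme-like barcodes, 145 and 168, gave further genes chosen by their values. jdp2b, an AP-1 family repressor, stood at 29.1 CPM in WT, 132 in miR-128Δ/Δ, 96.4 in the csnk1a1 g3UTR and 81.0 in the jag1b g3UTR library, in 23 and 81 barcodes. lepa, a leptin, stood at 113, 331, 171 and 185 CPM, and nkx3.2, a regulator of skeletal precursors, at 17.7, 55.8, 30.4 and 26.3 CPM. msx3, a muscle segment homeobox gene, was lower, at 49.0 CPM in WT and 12.1 in miR-128Δ/Δ (0.247). All 19 immediate-early genes compared in this class were above WT, where 46.7% of all genes were, 10 by their interval (6.45%), and their sum was 1.3 times WT. In neural-like barcodes 18 of 22 were below WT (48.0% of all genes). fabp11a was 0.0701 of WT in mesenchyme-like barcodes, at 135, 9.47, 22.2 and 8.10 CPM, but 1 barcode held 76.4% of its WT UMIs.

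In neural-like barcodes, 151 and 107, the genes given were likewise chosen by their values. urp1, a urotensin II-related peptide of spinal neurons that contact the cerebrospinal fluid, stood at 1398 CPM in WT, 578 in miR-128Δ/Δ, 2145 in the csnk1a1 g3UTR and 1733 in the jag1b g3UTR library. It was found in 19 of 151 and 6 of 107 barcodes, and the top 3 WT barcodes held 55.2%. tal2, a transcription factor of GABAergic precursors, stood at 264, 84.9, 206 and 266 CPM in 26 and 10 barcodes, and scg2a, a secretogranin of neurosecretory granules, at 584, 211, 782 and 1152 CPM in 26 and 9. Fewer cells with a transcript and less transcript per cell cannot be told apart here. slc6a5, the glycine transporter of other spinal neurons, stood at 49.1 and 160 CPM in 15 and 11 barcodes, and 3 barcodes held 90.8% of its mutant UMIs.

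The smallest classes gave single genes. In erythroid-like barcodes, 60 in each library, ube2c stood at 119 CPM in WT, 41.1 in miR-128Δ/Δ, 82.6 in the csnk1a1 g3UTR and 102 in the jag1b g3UTR library, and rps27l, a p53-responsive ribosomal protein paralogue, at 331, 107, 278 and 201 CPM. In muscle-like barcodes pvalb2, the calcium buffer of fast muscle, stood at 765 and 1895 CPM, both under the g3UTR levels of 4912 and 3978 CPM. In epidermis-like barcodes and1, an actinodin of the fin fold, stood at 680, 1482, 1674 and 1168 CPM, where WT was the lowest but 1 barcode held 36.3% of the mutant UMIs, and krt91, a keratin, at 2279, 841, 1765 and 1789 CPM, where the mutant was the lowest. The 3 barcodes with the most held 58.2% of the WT UMIs of rps27l, 57.3% of the mutant UMIs of pvalb2 and 54.8% of the WT UMIs of krt91.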

How the data were processed

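Single-cell RNA-seq libraries of sorted cells were read from the UMI count matrices the authors deposited, which hold whole, unnormalized counts per gene and cell barcode after cell calling with Cell Ranger 5.0.0 and a zebrafish annotation with corrected 3′UTRs. The genome build is not given in the sources used here. The 2 libraries compared have Cell Ranger 5.0.0 in their file headers. The file headers of both g3UTR libraries name another version than the labels, so their values are given side by side as a description with no test. The deposited matrices held 12918 barcodes and 144258953 UMIs for WT, 9788 and 99846696 for miR-128Δ/Δ, 9380 and 80140720 for csnk1a1 g3UTR, and 11482 and 69980329 for jag1b g3UTR.

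Barcodes with under 200 genes or over 35000 UMIs were left out. No doublet caller was run, and the upper UMI limit was the only guard against doublets. Rows that share a symbol (458 of 36351) were summed to 36109 symbols. UMIs were summed over barcodes with at least 1 cdh5 UMI and over those with 0, and scaled to CPM. Ratios have exact conditional binomial intervals, shares have exact Clopper-Pearson intervals, and both cover counting error only. A count of 0 was set against a floor of 3 UMIs. Ratios within a class needed 20 UMIs over both libraries.

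Classes were rebuilt from marker genes, leaving out non-endothelial markers found in over 10% of barcodes with cdh5, except in the haemogenic and HSPC class. That class kept lmo2, found in 89.9% of barcodes with cdh5, and tal1, found in 33.8%. Of the WT barcodes 573 and of the miR-128Δ/Δ barcodes 484 had exactly 3 markers of their leading class. Class shares were also taken after thinning to 3000 UMIs, which left out 1278 shallower WT and 719 shallower miR-128Δ/Δ barcodes. Different choices of class could give other names.

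Named genes were, on each side of the cdh5 division, the 15 highest and 15 lowest ratios among called genes, genes called alike on both sides, the 8 furthest from 1 in each direction among genes over 200 CPM in WT, the hosts and targets of miR-128, and members of the fixed gene lists that were called or had the most UMIs. Genes leading within a class were added by size after their values were seen. The comparison, the gene lists and the class thresholds were chosen with earlier results of these data known. Alternatives changed the scaling, the UMI minimum, the fold, the barcode filters, the way barcodes are summed and the endothelial gate. The calling step was tested on simulated data. Python 3.11.15, numpy 2.4.6, scipy 1.17.1, pandas 2.3.3 and matplotlib 3.10.9 were used.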

Additional observations from a re-analysis of the deposited data

Results flagged for a closer look

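Called in opposite directions with cdh5 and with cdh5 at 0 were 8 genes, and the difference between the sides was not tested. Few barcodes carried most of them. gch2, of pteridine pigment synthesis, had a ratio of 129 with cdh5, where 1 barcode held 82.6% of the mutant UMIs, and 0.476 without. afp4 had 0.174 and 33.8, with 1 barcode at 56.0% of the WT UMIs on the first side and 1 at 56.5% of the mutant UMIs on the second. apoa1a, an apolipoprotein of yolk and liver, had 0.242 and 4.53, where 5 WT and 6 mutant barcodes held it with cdh5 at 0. krt91, a keratin, had 3.02 and 0.217, and agr2, a disulphide isomerase of mucous cells, 3.53 and 0.185. In krt91 1 barcode held 69.3% of the mutant UMIs with cdh5, and in agr2 1 barcode held 67.8% of the WT UMIs without. myl4, a myosin light chain, had 2.1 and 0.221 from 11 barcodes or fewer in each library and side. malb had 2.06 and 0.493, and pts, of tetrahydrobiopterin synthesis, 2.0 and 0.363. These last were spread more widely with cdh5, malb over 88 WT and 114 mutant barcodes and pts over 247 and 207.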

How the results depend on the processing

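The counts of called genes depended on the minimum and the fold. With cdh5, 886 genes were higher and 966 lower at a minimum of 20 UMIs, 104 and 116 at 500 UMIs, and 891 and 871 at 1.5-fold. With cdh5 at 0 the same settings gave 491 and 708, 38 and 46, and 475 and 631. The mean of barcode CPM gave 236 higher genes with cdh5 at 0. Counting barcodes with a UMI, scaled to their sum over all genes, gave 55 higher and 90 lower there. The other settings left all 4 counts within 1.5 times. Median-of-ratios scaling moved all genes by 0.00229 and 0.00333 on the log2 scale. Under the gate from 4 endothelial genes, 296 of 333 and 329 of 348 calls with cdh5 were shared, but 85 of 133 and 97 of 188 with cdh5 at 0. An alternative added after seeing the data kept only arterial-like and venous-like barcodes with cdh5, and shared 230 higher and 262 lower calls. Leaving out the top barcode of each gene, also added, shared 304 and 319. All 24 mitosis genes stayed below WT with cdh5 under each setting tried, and all 23 replication genes did, except that the mean of barcode CPM gave 22.

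Of the values of single genes 4774 moved by less than their counting interval, 910 moved by more and 18 changed side. The 4774 include 600 and 419 values at minima of 20 and 500 UMIs, settings that cannot change a ratio. Counting barcodes with a UMI left 274 values within the interval, moved 310 beyond it and put 16 on the other side. When barcodes with a UMI were counted with cdh5, the ratio became 1.23 for afp4, 0.943 for agr2, 1.18 for apoa1a, 0.788 for col11a2, 0.81 for col9a3, 1.06 for fabp1b.1, 0.385 for krt91, 1.04 for nppc, 1.29 for pkd2l1, 1.2 for pvalb8 and 1.07 for urp1. With cdh5 at 0 it became 0.406 for apoda.1, 1.46 for atp1a1a.4, 1.1 for malb, 1.34 for myl4 and 1.1 for pts. The 4-gene gate gave 0.924 for krt91, and no upper UMI limit gave 0.896 for mdh1ab with cdh5 at 0. The cause was not tested. No paired analysis was possible because each group is 1 library. For the same reason no replicate could be left out. Depth sets the width of the counting intervals and also bears on the cdh5 division and on the class of a barcode. The spread between libraries of 1 genotype was not measured.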

Other observations

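Some called genes lay next to each other in gene order, in runs found after the values were seen. On each of 10 stretches, 3 or more called genes lay within 3 compared genes of the next. In 1 of them adra1ba (ratio 2.72) and havcr1 (5.26), a mucin-domain receptor, were higher and timd4 (0.495), of the same receptor family, was lower. In another the membrane-spanning 4-domain genes ms4a17a.5 (0.196) and ms4a17a.10 (0.422) were lower beside psmb10 (2.39). tpst2, a tyrosylprotein sulphotransferase, stood at 2.16 CPM in WT, 0.242 in miR-128Δ/Δ, 2.50 and 2.66 in the g3UTR libraries, and lay near zgc:114173 (0.141). mocs2, of molybdenum cofactor synthesis, stood at 0.568, 2.97, 1.14 and 1.60 CPM. Of the 10 stretches, those with the ferritin-like genes and with ccdc40, trim25 and rab11fip4b were of 1 direction, and the rest held genes of both directions. The share of genes called ran from 1.54% on chromosome 11 to 5.39% on chromosome 22, which holds r3hdm1.

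Of 38 collagens compared with cdh5, 18 were above WT and 20 below, with a median log2 ratio of -0.0299. col2a1a, a cartilage and notochord collagen, had a ratio of 2.07 there, but 1.19 when barcodes with a UMI were counted, and col11a2 and col9a3 lay below WT by that count. In barcodes with cdh5 at 0 col2a1a stood at 775 CPM in WT, 1455 in miR-128Δ/Δ, 905 in csnk1a1 g3UTR and 1189 in jag1b g3UTR. col18a1b, whose product holds endostatin, stood at 31.4 CPM in WT and 16.4 in miR-128Δ/Δ with cdh5 (0.523), and col18a1a had 0.689. In a list of nonsense-mediated decay and small RNA genes 11 of 19 were above WT and none was called, with a median log2 ratio of 0.0167, dicer1 at 0.888 and ago2 at 1.02.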
